A study of Mus musculus with 9 samples.

Results

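Rnf13 and Tnpo1 were followed in mouse ear epidermis beside 6 related genes, 8 of the 52550 genes in the count table. Rnf13 encodes a membrane-bound ubiquitin ligase and was set beside the ligases Rnf128, Rnf130, Rnf149 and Rnf167. Tnpo1 encodes transportin 1 and was set beside Tnpo2 and Tnpo3. The members were selected on measured values, because Rnf13 and Tnpo1 were higher with XYF than with imiquimod alone in these same libraries. The IMQ + XYF against IMQ + H2O values of all 8 genes are therefore a description with no test, as are the values of Rnf13 and Tnpo1 in every comparison. The 6 paralogs were tested in the comparisons with VAS + H2O.

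The study asked which epidermal transcripts change when mice with imiquimod-induced psoriasis-like dermatitis are given Xiao-Yin-Fang (XYF), a decoction of Chinese herbs. All mice were male, wild type and of the C57BL/6 strain (C57BL/6J in the methods), 8 weeks old by the labels (the methods give a range up to this age), and every group was gavaged for 10 days and had a cream on the skin for 5 days. VAS + H2O mice received Vaseline and water, IMQ + H2O mice received imiquimod, which activates Toll-like receptor 7, with water, and IMQ + XYF mice received imiquimod and 200 µl of XYF at 23.3 mg/g. No group received XYF without imiquimod, so each difference of IMQ + XYF from VAS + H2O holds both agents. Each group had 3 RNA-seq libraries of ear epidermal sheets. According to the methods, the sheets came from 2 mice, but whether each library holds a pair of mice is unclear, so the p-values measure the spread between these libraries, which may in part be technical.

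The 9 libraries held 30298275 to 64771160 gene counts, and 3 counts, taken as the limit of detection for counting error alone, were worth 0.0463 to 0.0990 CPM (counts scaled to a library of fixed size). Keratinocyte genes were abundant in every library, with 56967 to 84148 CPM summed over 18 markers and none of them at 0. Genes of cartilage and dermal fibroblasts, which lie outside the epidermis, were also read. Their summed level was 731 to 2149 CPM in VAS + H2O, 214 to 308 CPM in IMQ + H2O and 492 to 874 CPM in IMQ + XYF. The second VAS + H2O library had the highest value, and its 8 skeletal muscle genes summed to 315 CPM against 7.07 and 8.52 CPM in the other VAS + H2O libraries. The muscle sums were 3.70 to 7.41 CPM in IMQ + H2O and 19.0, 87.9 and 6.07 CPM in IMQ + XYF.

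Rnf13, Rnf128, Rnf130, Rnf149 and Rnf167 belong to the PA-TM-RING ligases, named for a protease-associated domain in the lumen, a transmembrane helix and a cytosolic RING domain that recruits a ubiquitin-charged E2 enzyme. They sit mainly on endosomes and lysosomes and ubiquitinate proteins there, and Rnf13 has been tied to the ER stress sensor IRE1 and JNK signaling. Transportins are importins of the karyopherin-β family, which carry proteins through the nuclear pore and release them when they bind RanGTP. Transportin 1 and transportin 2 import RNA-binding proteins such as HNRNPA1, and transportin 3 imports serine- and arginine-rich splicing factors.

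Rnf13 (ENSMUSG00000036503) lies on the plus strand of chromosome 3 at 57736062 to 57835233 in GRCm38. It had 43.8, 40.2 and 46.2 CPM in the VAS + H2O libraries, 36.6, 38.6 and 33.4 CPM in IMQ + H2O, and 92.2, 84.4 and 83.9 CPM in IMQ + XYF, each group given by replicate number. The 3 IMQ + XYF libraries were the highest of the 9, the 3 IMQ + H2O libraries were the lowest, and none of the groups overlapped. The group means were 43.4 ± 3.04, 36.2 ± 2.65 and 86.8 ± 4.67 CPM (SD, n = 3). IMQ + XYF stood 2.41-fold above IMQ + H2O, a log2 fold change of 1.27 (SE 0.085), and lay above VAS + H2O by a log2 fold change of 1.001 (SE 0.079). The difference of IMQ + H2O from VAS + H2O was smaller and had the opposite sign, with a log2 fold change of -0.28 (SE 0.094). These values rest on 1059 to 5868 counts per library.

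Tnpo1 (ENSMUSG00000009470) lies on the minus strand of chromosome 13 at 98839019 to 98926384. Its level was 68.4, 125 and 58.7 CPM in VAS + H2O, 68.1, 74.6 and 75.7 CPM in IMQ + H2O, and 152, 147 and 144 CPM in IMQ + XYF. The IMQ + XYF libraries were again the highest, but the second VAS + H2O library lay nearer to them than to the other libraries of its own group, and the VAS + H2O and IMQ + H2O groups overlapped. Means were 84.0 ± 35.7, 72.8 ± 4.09 and 148 ± 4.47 CPM (SD, n = 3), so that the spread within VAS + H2O was the widest of the 3 groups. IMQ + XYF was 2.04-fold above IMQ + H2O, with a log2 fold change of 1.03 (SE 0.070), and stood above VAS + H2O by a log2 fold change of 0.82 (SE 0.268). The log2 fold change of IMQ + H2O from VAS + H2O was -0.22 (SE 0.275). Without the second VAS + H2O library these last values were 1.22 and 0.19, so the sign of the imiquimod difference of Tnpo1 rested on that library.

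**Figure D1:**
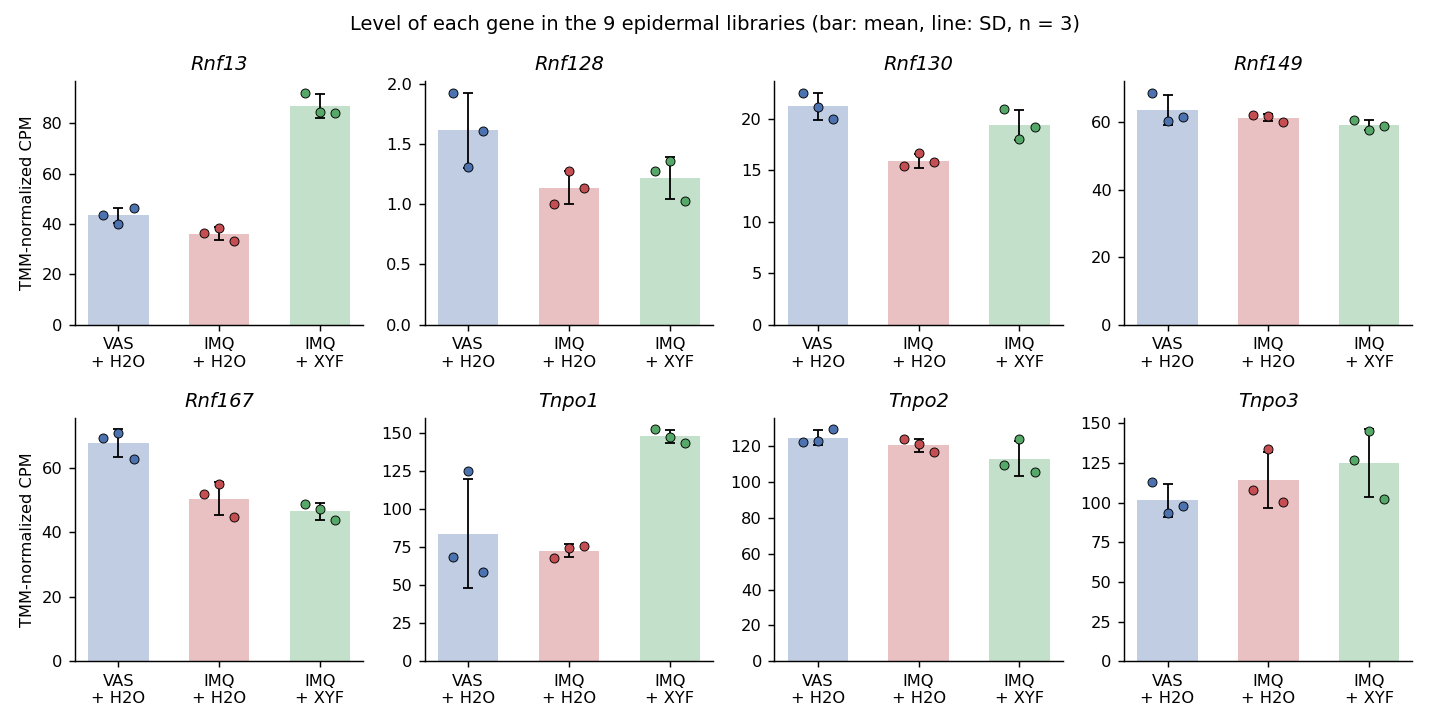
The 8 genes in each of the 9 libraries, as TMM-normalized CPM on axes that start at 0; points are libraries, bars are group means and lines are SDs (n = 3). In the Rnf13 and Tnpo1 panels the 3 IMQ + XYF points lie above all others, from 83.9 and 144 CPM upward, while the panels of Rnf149 and Tnpo2 stay nearly level.

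Of the 17793 genes tested between IMQ + XYF and IMQ + H2O, 5 passed the DEG thresholds (adjusted p no more than 0.05, log2 fold change of 1 or more in either direction), all of them higher with XYF. This was 0.0281% of the genes, and Rnf13 and Tnpo1 ranked 2 and 3 by p, which is how they came to be chosen. edgeR gave 966 of the 17793 genes an unadjusted p under 0.05, which a share of about 0.05 would pass without any difference. DESeq2 gave 165 genes an adjusted p of no more than 0.05. Leaving out 1 library at a time moved the log2 fold change between 1.21 and 1.32 for Rnf13 and between 0.98 and 1.05 for Tnpo1. Both genes were past the thresholds in 1 of these 6 fits, that without the third IMQ + H2O library, and neither was in the others. As both were chosen on this comparison, these fits are a description and no test of them.

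The 250 bases upstream of the RefSeq starts of both genes are shown because the genes were high in the same 3 libraries. Capitals mark the GC box GGGCGG and the CCAAT box in either orientation.

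Rnf13, chr3:57735807-57736056, plus strand, GRCm38.p6: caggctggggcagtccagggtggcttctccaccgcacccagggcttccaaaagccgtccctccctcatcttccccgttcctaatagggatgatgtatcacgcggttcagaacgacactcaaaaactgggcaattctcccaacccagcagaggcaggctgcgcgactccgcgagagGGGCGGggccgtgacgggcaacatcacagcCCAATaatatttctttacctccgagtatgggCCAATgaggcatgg

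Tnpo1, chr13:98926385-98926634, minus strand, GRCm38.p6: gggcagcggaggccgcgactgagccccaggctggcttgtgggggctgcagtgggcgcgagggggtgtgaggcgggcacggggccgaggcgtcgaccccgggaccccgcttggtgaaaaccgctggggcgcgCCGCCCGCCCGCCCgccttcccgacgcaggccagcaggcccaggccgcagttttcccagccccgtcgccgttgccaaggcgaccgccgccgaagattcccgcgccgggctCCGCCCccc

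The Rnf13 window has 1 GC box and 2 CCAAT boxes. The Tnpo1 window has 4 GC boxes on the opposite strand, 3 of them overlapping, and no CCAAT box. It is also richer in G and C, at 78.0% with 33 CpG dinucleotides, against 58.8% and 14 in Rnf13. Of 32851 such windows, 32.7% held a GC box and 33.8% a CCAAT box, so each is common. The E box CACGTG, the cyclic AMP element TGACGTCA, the ETS motif CCGGAAG and the TATA box TATAAA were found in neither window. RefSeq lists a second Tnpo1 start, whose window held none of the 6 motifs. A GC box stood before Rnf128, Rnf130, Rnf149, Rnf167 and 1 of 2 Tnpo2 starts, and a CCAAT box before Rnf167 and the other Tnpo2 start.

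The paralogs are given for contrast, and since Rnf13 and Tnpo1 were chosen for a large XYF difference, smaller ones in the paralogs are no finding. Rnf149 (chromosome 1, 39551296 to 39577405), a ligase known to act on BRAF, had 68.7, 60.3 and 61.5 CPM in VAS + H2O, 62.0, 61.7 and 60.1 CPM in IMQ + H2O, and 60.6, 57.7 and 58.7 CPM in IMQ + XYF. Its IMQ + XYF and IMQ + H2O libraries overlapped, with a log2 fold change of -0.05 (95% interval -0.20 to 0.10). Tnpo2 (chromosome 8, 85036915 to 85057583), the closest relative of Tnpo1, had 122, 123 and 129 CPM in VAS + H2O, 124, 121 and 116 CPM in IMQ + H2O, and 109, 124 and 105 CPM in IMQ + XYF. These groups overlapped too, with an XYF difference of -0.09 on the log2 scale (95% interval -0.28 to 0.10). Tnpo3 (chromosome 6, 29540827 to 29609887) had 113, 93.3 and 98.2 CPM in VAS + H2O, 108, 134 and 101 CPM in IMQ + H2O, and 127, 145 and 102 CPM in IMQ + XYF. Its mean was highest in IMQ + XYF, at 125 ± 21.5 CPM (SD, n = 3), but its libraries spread more widely than those of the other transportins in that group. The XYF difference of Tnpo3 from IMQ + H2O was 0.13 (95% interval -0.24 to 0.51).

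Rnf130 (chromosome 11, 50025346 to 50104758), the mammalian relative of the fly ligase Goliath, was lowest in IMQ + H2O. It had 22.6, 21.1 and 19.99 CPM in VAS + H2O, 15.4, 16.7 and 15.8 CPM in IMQ + H2O, and 20.9, 18.1 and 19.2 CPM in IMQ + XYF. All IMQ + H2O libraries lay below all others, while IMQ + XYF overlapped VAS + H2O. The fall with imiquimod was -0.43 on the log2 scale (SE 0.101, edgeR adjusted p = 0.0284), and IMQ + XYF did not pass the test against VAS + H2O (-0.13, SE 0.097, edgeR adjusted p = 0.355). The log2 fold change of IMQ + XYF from IMQ + H2O was 0.29 (SE 0.102). The imiquimod call of Rnf130 was lost in all 6 fits that left out a library, with adjusted p between 0.0567 and 0.112 from edgeR.

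Rnf167 (chromosome 11, 70647235 to 70651421), a ligase of endosomes and lysosomes, was lower in both imiquimod groups. It had 69.1, 70.9 and 62.6 CPM in VAS + H2O, 51.7, 54.9 and 44.8 CPM in IMQ + H2O, and 48.7, 47.1 and 43.7 CPM in IMQ + XYF. Every VAS + H2O library lay above the 6 others, and the imiquimod groups overlapped. The log2 fold change was -0.43 for IMQ + H2O (SE 0.104, edgeR adjusted p = 0.0286) and -0.54 for IMQ + XYF (SE 0.079, edgeR adjusted p = 0.00415), both against the same VAS + H2O libraries. The call of IMQ + XYF held in each fit without 1 library, while that of IMQ + H2O was lost in 4 of 6. Rnf167 thus had the opposite sign to Rnf13 in IMQ + XYF. Its exons overlap those of Slc25a11 on the opposite strand, and the strand setting of the counting is not given in the sources used here. Slc25a11 had a mean of 54.1 CPM in VAS + H2O, 51.6 CPM in IMQ + H2O and 56.5 CPM in IMQ + XYF. It did not pass the test of IMQ + H2O against VAS + H2O (edgeR adjusted p = 0.486). Its fit of IMQ + XYF against VAS + H2O is not given here.

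Rnf128 (chromosome X, 139563316 to 139673145), also called GRAIL and known for its part in T cell anergy, was nearly silent, with 29 to 91 counts per library. It had 1.93, 1.31 and 1.61 CPM in VAS + H2O, 1.002, 1.27 and 1.13 CPM in IMQ + H2O, and 1.27, 1.36 and 1.03 CPM in IMQ + XYF. The VAS + H2O libraries lay above those of IMQ + H2O by a narrow gap, and the log2 fold change of -0.52 (95% interval -1.11 to 0.08) did not pass the test (edgeR adjusted p = 0.183). The 8 markers of T cells summed to 113 to 119 CPM in VAS + H2O, 156 to 181 CPM in IMQ + H2O and 154 to 205 CPM in IMQ + XYF. In these bulk samples fewer cells of a type and less RNA per cell cannot be told apart, and the part of T cells in the level of Rnf128 was not tested.

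All 8 genes passed the filter on low counts in each comparison. Among the 6 paralogs, 2 were called between IMQ + H2O and VAS + H2O (Rnf130 and Rnf167, both lower), where 22.1% of all 18009 genes tested were called. Between IMQ + XYF and VAS + H2O, 1 of 6 was called (Rnf167), where 28.7% of 17954 genes were. The groups did not overlap for 3 paralogs in the first comparison (Rnf128, Rnf130 and Rnf167) and for 1 in the second (Rnf167), against 44.5% and 46.8% of all genes. Between IMQ + XYF and IMQ + H2O the groups were separate for Rnf13, Tnpo1 and Rnf130, where 10.7% of genes were, and nothing is read from that count because the members were chosen there. The median log2 fold change of the paralogs was -0.25, -0.14 and 0.03 in these comparisons, beside -0.03, -0.04 and 0.00 over all genes tested. The comparisons share libraries pairwise and are not independent.

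**Figure D2:**
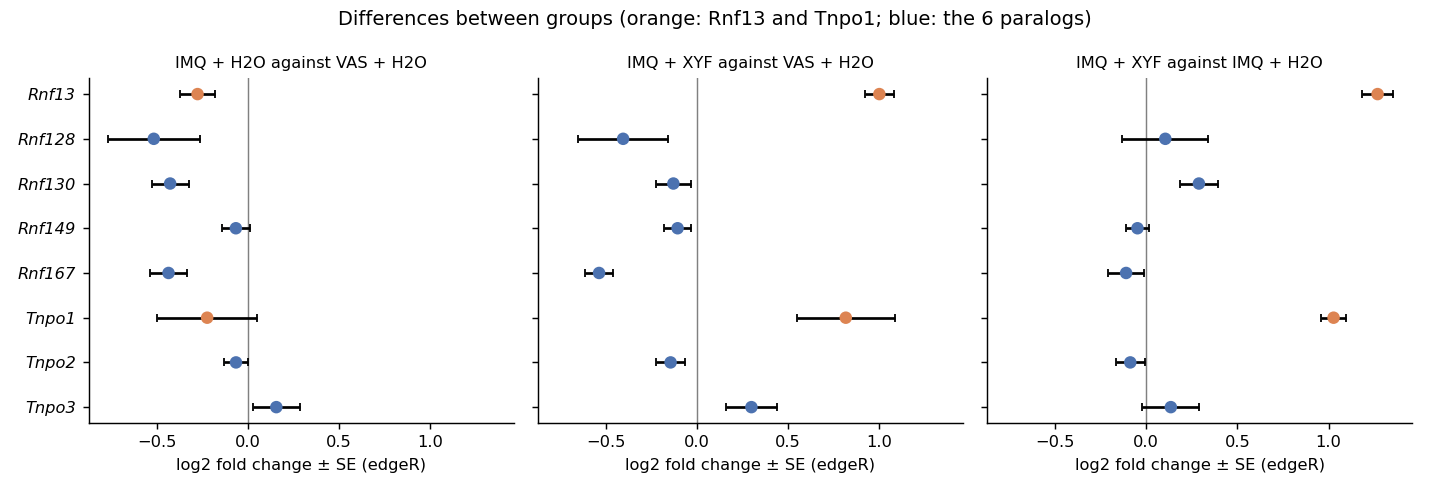
Log2 fold change of each gene with its SE from edgeR (horizontal axis) in the 3 comparisons; orange points are Rnf13 and Tnpo1, blue points are the 6 paralogs. Against IMQ + H2O, Rnf13 lies at 1.27, Tnpo1 at 1.03, and the paralogs between -0.11 and 0.29.

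Within their families, Rnf13 and Tnpo1 took a larger share in IMQ + XYF, a description that follows in part from their choice. Levels per kilobase of exon (CPM per kb) allow genes to be compared, with the limit that they use the union of the annotated exons, 10019 bp for Rnf13 and 1558 bp for Rnf130. In VAS + H2O the mean level of the ligases fell from Rnf149 at 22.4 to Rnf167 at 19.1, Rnf130 at 13.6, Rnf13 at 4.33 and Rnf128 at 0.465 CPM per kb, and no neighbours in this order overlapped. In IMQ + XYF the order was the same, with Rnf13 at 8.67 CPM per kb (8.38 to 9.20), still below the 11.6 to 13.4 of Rnf130, while Rnf130 and Rnf167 overlapped.

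The other 7 ligases of the family were Rnf43 and Znrf3, which remove Wnt receptors from the cell surface, Rnf215, Rnf150 and the silent Rnf133, Rnf148 and Znrf4, which had 0 counts in every library. By mean level per kilobase Rnf13 lay below Rnf43, Znrf3 and Rnf215 in VAS + H2O (7.15, 7.26 and 7.50 CPM per kb) and above them in IMQ + XYF (4.16, 5.45 and 6.08 CPM per kb). The share of Rnf13 in the summed level of the 12 ligases was 5.29% ± 0.337 in VAS + H2O, 5.43% ± 0.277 with imiquimod alone and 12.2% ± 0.198 with XYF (SD, n = 3). That sum itself was 81.9 ± 3.26, 66.5 ± 1.80 and 71.1 ± 2.92 CPM per kb. Rnf13 thus had its largest share in a group whose family sum was below that of VAS + H2O.

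Among the transportins Tnpo2 was the most abundant per kilobase in all groups. Tnpo1 and Tnpo3 overlapped in VAS + H2O, at 5.24 to 11.1 and 7.13 to 8.62 CPM per kb. Tnpo1 was the lower of the pair in IMQ + H2O (6.07 to 6.75 against 7.68 to 10.2) and the higher in IMQ + XYF (12.8 to 13.6 against 7.81 to 11.1), without overlap either time. The ratio of Tnpo1 to Tnpo2 per kilobase was 0.314, 0.570 and 0.255 in VAS + H2O, 0.309, 0.346 and 0.365 with imiquimod alone, and 0.782, 0.668 and 0.765 with XYF. Per kilobase, transportin 1 transcripts thus stayed below those of transportin 2 even in IMQ + XYF. This order rests on the annotated exon lengths, 11212 bp for Tnpo1 and 6285 bp for Tnpo2. In CPM Tnpo1 was the higher there, at 152, 147 and 144 against 109, 124 and 105. The share of Tnpo1 in the transportin sum went from 18.9% ± 1.38 in IMQ + H2O to 32.5% ± 2.29 in IMQ + XYF, with 21.02% ± 7.39 in VAS + H2O (SD, n = 3).

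**Figure D3:**
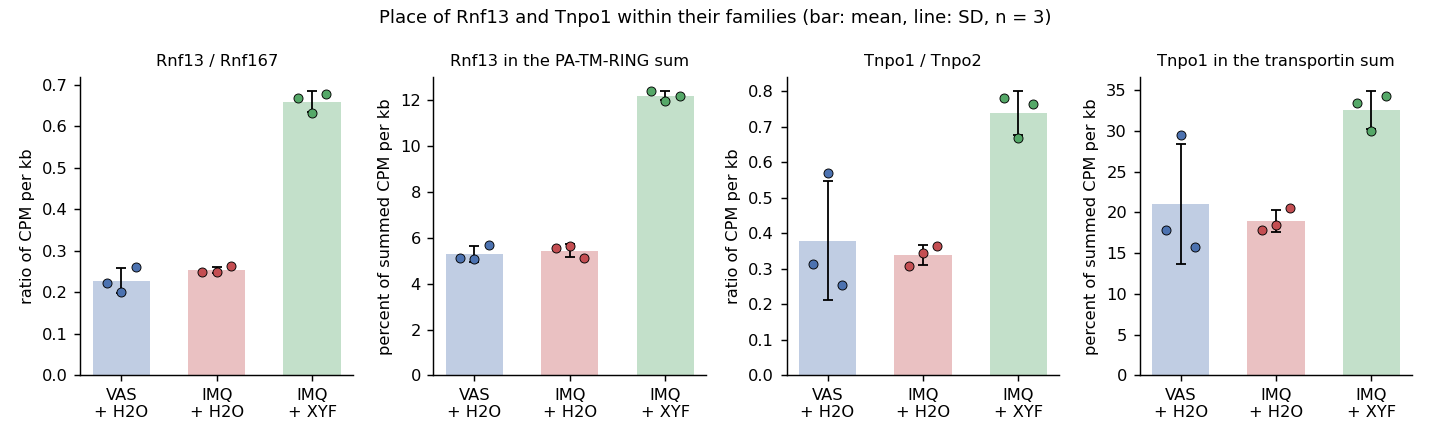
Ratios and shares of CPM per kb in the 9 libraries: Rnf13 over Rnf167, Rnf13 in the sum of 12 ligases, Tnpo1 over Tnpo2 and Tnpo1 in the sum of 3 transportins; points are libraries, bars means and lines SDs (n = 3). All 4 measures are highest in IMQ + XYF, and the second VAS + H2O library, at 0.570, is the high point of the Tnpo1 over Tnpo2 ratio in its group.

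The partners and targets of both families are described from hand-written lists of 98 genes, 93 of which were tested. Against VAS + H2O, 32 of them were called in IMQ + H2O (29 higher and 3 lower, 34.4% against 22.1% of all genes). In IMQ + XYF 49 were called (45 higher and 4 lower, 52.7% against 28.7%). Between IMQ + XYF and IMQ + H2O edgeR called none of them, with 4 of the 93 at an unadjusted p under 0.05, and DESeq2 called none either. With 0.0281% of all genes past the thresholds there, a count of 0 is near the background.

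Of the 17 other importins and exportins of the karyopherin-β family, 10 were called higher with imiquimod and none was called lower. Their median log2 fold change was 0.39. Of all genes, 22.1% were called there in either direction. Kpnb1, the importin β1 that carries most classical cargo, went from 222 to 394 CPM in IMQ + H2O (log2 fold change 0.81, SE 0.114, edgeR adjusted p = 0.00876) and stood at 403 CPM in IMQ + XYF. Ipo5, which imports ribosomal proteins and histones, rose by 0.70 on the log2 scale (SE 0.099, edgeR adjusted p = 0.00883). With XYF added, 11 of 17 were called higher than in VAS + H2O, with a median of 0.50, beside 28.7% of all genes in either direction. From IMQ + H2O to IMQ + XYF the 17 genes lay between -0.22 and 0.12 with a median of 0.05.

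The importin α subunits and the Ran cycle, which gives transport its direction, had 4 of 12 genes called in IMQ + H2O and 10 of 12 in IMQ + XYF, all higher than in VAS + H2O. Of all genes, 22.1% and 28.7% were called in these comparisons in either direction. Ran had 121 CPM in VAS + H2O, 257 CPM in IMQ + H2O and 263 CPM in IMQ + XYF, with log2 fold changes of 1.08 (SE 0.144, edgeR adjusted p = 0.00810) and 1.13 (edgeR adjusted p = 0.000951) from VAS + H2O. Kpna2, an importin α of dividing cells, rose by 0.97 and 1.09 (edgeR adjusted p = 0.0122 and 0.00116). The difference in the number of calls between the imiquimod groups was not tested, and none of the 12 was called between them.

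Of 17 genes whose proteins are imported by transportin 1, 6 were called higher and 1 lower with imiquimod alone than in VAS + H2O. In IMQ + XYF these counts were 9 and 1. The shares called over all genes were 22.1% and 28.7% in these comparisons. Hnrnpa3 rose by 0.72 in IMQ + H2O (SE 0.125, edgeR adjusted p = 0.0129) and by 0.85 in IMQ + XYF (edgeR adjusted p = 0.00148). Rbm3, a cold-induced RNA-binding protein, rose by 0.52 in IMQ + H2O (edgeR adjusted p = 0.0104), and Hnrnpa0 by 0.57 in IMQ + XYF (edgeR adjusted p = 0.00264). The gene that fell was Cirbp, also a cold-induced RNA-binding protein and named here after its values were seen, at -0.69 and -0.80. Between the imiquimod groups these 17 genes stayed between -0.12 and 0.12.

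Of 10 transportin 3 cargoes, 1 was called in IMQ + H2O and 4 in IMQ + XYF against VAS + H2O. Of all genes, 22.1% and 28.7% were called there, and counts this small are not read as a result about these cargoes. The gene called in IMQ + H2O was Srsf7 (0.45, SE 0.125, edgeR adjusted p = 0.0450). In IMQ + XYF Srsf7 and Srsf2 rose by 0.55 and 0.38 (edgeR adjusted p = 0.00440 and 0.0147). The cleavage factors Cpsf6 and Cpsf7, named after their values were seen, fell there by 0.24 and 0.22 on the log2 scale.

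Of 23 genes of ER stress and the IRE1 branch, the pathway linked to Rnf13, 7 were called higher in IMQ + H2O and none was called lower. Over all genes 22.1% were called there in either direction. The log2 fold changes of the 23 ran from -0.36 to 1.22. Hspa5, the main ER chaperone BiP, went from 185 to 422 CPM in IMQ + H2O and 433 CPM in IMQ + XYF, log2 fold changes of 1.18 (SE 0.143, edgeR adjusted p = 0.00697) and 1.23 (edgeR adjusted p = 0.000639). Calr, the ER chaperone calreticulin, rose by 1.22 and 1.20 (edgeR adjusted p = 0.00663 and 0.00117). In IMQ + XYF 9 of 23 were called, all higher, beside 28.7% of all genes in either direction. Ern1 and Xbp1, named after their values were seen, were not called in IMQ + H2O (0.04 and 0.33, edgeR adjusted p = 0.838 and 0.111). In IMQ + XYF Xbp1 was called (0.37, edgeR adjusted p = 0.0167) and Ern1 was not (-0.20, edgeR adjusted p = 0.240). Between IMQ + XYF and IMQ + H2O the 23 genes lay between -0.26 and 0.17.

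Of the 7 other PA-TM-RING ligases 4 were tested, and Rnf43 was lower in IMQ + H2O (-0.63, SE 0.130, edgeR adjusted p = 0.0192) and in IMQ + XYF (-0.78, edgeR adjusted p = 0.0132). Among 10 E2 enzymes of the UBE2D and UBE2N groups, which work with RING ligases, Ube2n rose in both imiquimod groups (0.51 and 0.60, edgeR adjusted p = 0.0189 and 0.00264) and Ube2d3 in IMQ + XYF (0.40, edgeR adjusted p = 0.0132). Ube2v2 fell in IMQ + H2O by 0.35 on the log2 scale (SE 0.077, edgeR adjusted p = 0.0229). The mean of Ube2v2 was 37.0 CPM in VAS + H2O, 29.2 CPM in IMQ + H2O and 38.2 CPM in IMQ + XYF, and the XYF difference of 0.39 did not pass the test (edgeR adjusted p = 0.586).

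**Figure D4:**
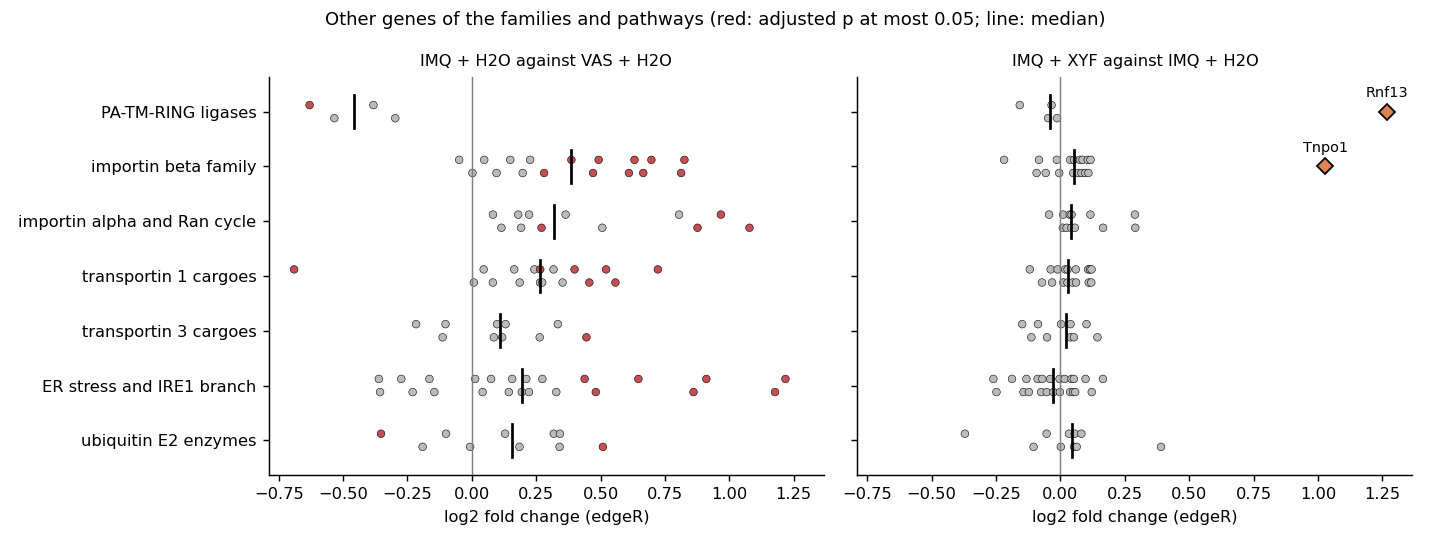
Log2 fold changes from edgeR (horizontal axis) of the list genes other than the 8 members, 1 row per list, for IMQ + H2O against VAS + H2O (left) and IMQ + XYF against IMQ + H2O (right); red points had an adjusted p of at most 0.05, vertical lines are medians and diamonds are Rnf13 and Tnpo1. The left panel spreads to 1.22, while on the right the list genes keep between -0.37 and 0.39 and the diamonds lie at 1.27 and 1.03.

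Cartilage and fibroblast genes differed between IMQ + XYF and IMQ + H2O as well. Of 15 cartilage genes 12, and of 13 dermal fibroblast genes 10, were higher with XYF than with imiquimod alone, without overlap, beside 10.7% of all genes without overlap in either direction. The cartilage sum was 410 to 903 CPM in VAS + H2O, 113 to 173 CPM in IMQ + H2O and 272 to 420.2 CPM in IMQ + XYF, and the fibroblast sum was 292 to 1247, 101 to 135 and 215 to 454 CPM. Matn1, a defining cartilage gene, was at 0 in all libraries and Matn3 in those of IMQ + H2O. In VAS + H2O Rnf13 had 40.2 to 46.2 CPM, the lowest of these in the second library, which was the richest in cartilage and fibroblast transcripts. For Tnpo1 that library was the high one of its group, at 125 CPM.

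The mean log2 level of the 24 of these tissue genes that passed the low-count filter was used as a covariate. That level overlapped between IMQ + XYF and VAS + H2O. The log2 fold change of IMQ + XYF from VAS + H2O was then 0.97 for Rnf13 and 1.21 for Tnpo1. From IMQ + H2O it was 0.96 and 1.02. In that fit the covariate did not overlap between the groups, and edgeR called no gene at all. For IMQ + H2O against VAS + H2O, a fit with the same lack of overlap, the log2 fold change of Tnpo1 turned from -0.22 to 1.01, the largest shift among the 8 genes, and that of Rnf13 was -0.41. Rnf130 and Rnf167 had -0.44 and -0.25 in this fit, neither called. Where the covariate did not overlap between the groups, the fit cannot separate these tissues from the treatment. The part of these tissues in the levels of Rnf13, Tnpo1 and both ligases was not tested.

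**Figure D5:**
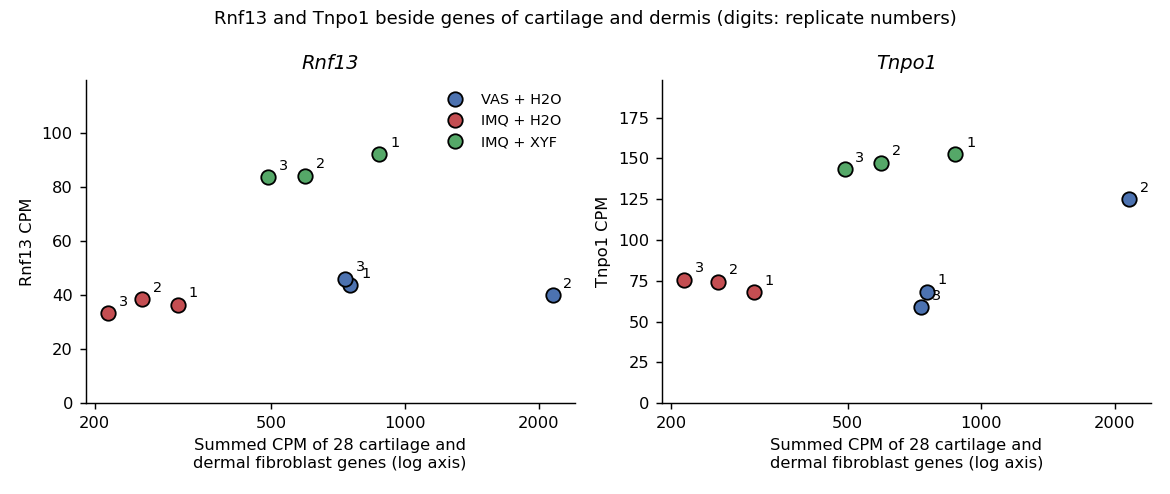
CPM of Rnf13 (left) and Tnpo1 (right) against the summed CPM of 28 cartilage and dermal fibroblast genes on a log axis; each point is a library, colored by group and marked with its replicate number. The VAS + H2O points, at 731 to 2149 CPM, lie low for Rnf13, and the second of them lies high, at 125 CPM, for Tnpo1.

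The genes whose levels ran most like those of Rnf13 and Tnpo1 were ranked by Pearson's r of log2 CPM over the 9 libraries among 10156 well-expressed genes. The libraries share groups and depth, so r is a description in which the 3 IMQ + XYF libraries weigh heavily. For Rnf13 they were Arl6 and Ift57, both genes of primary cilia, Maob, a monoamine oxidase, Appl1, an endosomal adaptor, and Pum2, a translational repressor, with r from 0.81 to 0.89. Over the 6 libraries without XYF these r were 0.47, -0.58, 0.33, -0.10 and 0.30, so the likeness rested on the IMQ + XYF group. Their XYF differences were small beside that of Rnf13, from 0.12 to 0.59 on the log2 scale. Maob had the largest, at 19.3 ± 1.43 CPM in IMQ + XYF against 12.9 ± 1.51 CPM in IMQ + H2O (SD, n = 3).

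For Tnpo1 they were S100a1, a calcium-binding protein of muscle, Tead1, the DNA-binding partner of YAP, Tusc3, a subunit of the oligosaccharyltransferase, D10Jhu81e and Gmpr2, a GMP reductase, with r from 0.86 to 0.92. Tead1 had 7.38, 62.7 and 6.77 CPM in VAS + H2O, 8.74, 14.2 and 6.69 CPM in IMQ + H2O, and 26.5, 73.4 and 65.2 CPM in IMQ + XYF. It thus shared with Tnpo1 the high second library of VAS + H2O as well as the IMQ + XYF group. Over the 6 libraries without XYF the r of Tnpo1 was 0.94 with Tead1 and 0.85 with S100a1. The second VAS + H2O library was the highest of these for Tnpo1, Tead1 and S100a1 alike, so it weighs heavily in both r. For S100a1 it had 21.2 CPM against 15.8 to 18.2 CPM in the other libraries without XYF. The r without that library was not computed.

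Rnf13 and Tnpo1 had an r of 0.80 with each other over the 9 libraries and of -0.22 over the 6 without XYF. Apart from the IMQ + XYF group, then, they did not run together. Over those 6 libraries Rnf13 had its highest r with Rnf128 (0.83), Rnf167 (0.82), Rnf130 (0.81) and Tnpo2 (0.80) among the members, while over all 9 these were at -0.06, -0.44, 0.38 and -0.56. Tnpo1 had an r of -0.61 with Tnpo2 over the 9 libraries.

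Of the neighbors of Rnf13 and Tnpo1 on the chromosome, those with enough counts were not called between IMQ + XYF and IMQ + H2O. Pfn2, which lies 6662 bp from Rnf13 and encodes an actin-binding profilin, had a log2 fold change of -0.05 (SE 0.140) between IMQ + XYF and IMQ + H2O and was lower with imiquimod alone than in VAS + H2O (-0.87, SE 0.151, edgeR adjusted p = 0.0129). Ankub1, on the other side, had 0 to 4 counts. Fcho2, an endocytic protein gene 23570 bp from Tnpo1, had -0.15 (SE 0.165) with XYF and was lower with imiquimod (-0.57, SE 0.148, edgeR adjusted p = 0.0364), and 1700024P04Rik had 0 counts. An intron of Tnpo1 holds the pseudogene Gm5453 on the opposite strand, which had 80.9 CPM in VAS + H2O, 82.7 CPM with imiquimod alone and 87.4 CPM with XYF, an XYF difference of 0.09 (SE 0.084). The exons of Tnpo3 overlap those of Irf5, and those of Tnpo2 overlap A230103J11Rik, both on the opposite strand, and those of Rnf149 overlap Gm15832 on its own strand, so that their counts are less certain than those of Tnpo1. Rnf13 overlaps the exon of a pseudogene, Gm17951, that had at most 3 counts.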

How the data were processed

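Total RNA of ear epidermal sheets was sequenced in 9 libraries, 3 per group, and each library's group was taken from its label. The authors deposited whole-number counts per gene, without normalization. Per the labels and the study's methods, the reads of TruSeq libraries were aligned by STAR 2.5 to GRCm38, annotated by Ensembl release 90. The counting tool and its strand setting are not given in the sources used here. The labels describe strand-specific libraries, while the kit named in the methods does not mark strand. The labels give no batch or date. Replicates differed by more than counting noise (chi-square per gene 26.1 to 82.7), so none was a copy of another.

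Each comparison was fitted on its own 6 libraries over all genes with edgeR 4.0.16 (TMM, filterByExpr, glmQLFit and glmQLFTest) in R 4.3.3, with Benjamini-Hochberg adjustment over the genes tested. A gene was called at an adjusted p of at most 0.05. The DEG thresholds, used between IMQ + XYF and IMQ + H2O, add a log2 fold change of 1 or more in either direction. In the main fit the 5 genes called there met both. DESeq2 1.42.0, which the study names, was an alternative. SEs were derived from the test statistic. The mean ± SD is of TMM-normalized CPM, and likeness used log2 CPM with a prior count of 2 and a mean of at least 3. Lengths and positions came from GENCODE M21, and promoter windows of all 8 genes from RefSeq, GRCm38.p6.

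The members and the lists were chosen with earlier results of these data known. Genes named beside the members were, by rule, the pair with the smallest p in each list and comparison where called, the 5 genes most alike to Rnf13 and to Tnpo1, and their chromosomal neighbors. Exceptions are marked where they stand. The fits were tested on simulated data of known answer. Of 200 genes changed by 1 on the log2 scale, 65.5% to 72.5% were recovered, with 6 to 16 false calls. The 16 came in IMQ + XYF against VAS + H2O. With no gene changed there were 1 to 2 false calls. Alternatives were DESeq2, RLE size factors, other count filters, all 9 libraries in 1 fit, a replicate block, glmTreat, the tissue score as a covariate, and the omission of each library. Protein sequences were not used here.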

Additional observations from a re-analysis of the deposited data

How the results depend on the processing

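DESeq2, RLE size factors and a minimum of 10 counts in every library kept the counts of called paralogs at 2 (IMQ + H2O) and 1 (IMQ + XYF) against VAS + H2O. The 2 became 0 without the low-count filter, with glmTreat and with the tissue score as a covariate, and 0 to 1 with a library left out. The 1 became 0 with glmTreat and stayed at 1 to 1 with a library left out. Rnf13 and Tnpo1 were chosen on IMQ + XYF against IMQ + H2O, so their counts there are a description and no test of them. In the main fit both were past the thresholds. That count of 2 became 1 in the fit of all 9 libraries, 0 with glmTreat and with the covariate, and 0 to 2 with a library left out. The cause of these changes was not tested. The genes called over the whole table went from 5 to 165 with DESeq2 in that comparison, and from 3986 to 3050 without the filter in IMQ + H2O against VAS + H2O. Of the list genes, 32 called in IMQ + H2O became 13 to 33, the lowest without the second VAS + H2O library, 49 in IMQ + XYF became 33 to 50, and 0 stayed at 0. Signs of single-gene log2 fold changes turned with the covariate for Tnpo3 (0.16 to -0.030) and Tnpo1 (-0.22 to 1.01) in IMQ + H2O against VAS + H2O and for Rnf128 (0.10 to -0.12) and Tnpo3 (0.13 to -0.26) in IMQ + XYF against IMQ + H2O, and without the second VAS + H2O library for Tnpo1 (-0.22 to 0.19). A called gene lost its call in 18 single-gene fits. Same-numbered libraries showed little shared deviation (correlations -0.13 to 0.11, every sample matching its own number in none of the comparisons). The numbers were therefore not used as pairs, but this check cannot exclude a shared mouse or batch. With the replicate block the counts were 1 and 1 for paralogs against VAS + H2O, 0 for Rnf13 and Tnpo1, and 27, 38 and 0 for list genes. With 3 libraries a group, differences as small as those of most paralogs could be missed.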
